A study of Mus musculus with 12 samples.

Results

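The genes described here are the neighbours of Atp6v0c and Rnps1 on mouse chromosome 17. They are the protein coding genes of the deposited count table whose start lies from base 23500000 to base 26000000, leaving out Abca3 and genes with names that begin with Mmp, Rpl or Rps. This rule gave 110 of the 56748 genes in the table, and 81 of the 110 had counts high enough to be tested. The segment was chosen by the levels of Atp6v0c and Rnps1 in the libraries of the C3 knockout group, which they divided unevenly, and those levels are given here as a description. The question was whether neighbouring genes divide those libraries in the same way, as genes on a chromosome segment that differs between the animals would.

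RNA came from whole lung of mice in the MMTV-PyMT model, in which the polyoma middle T oncogene under the mouse mammary tumour virus promoter gives mammary tumours that spread to the lung. Lungs were taken at 4.5 months, and 4 libraries were made in each of 3 groups. The wild type group (WT) was MMTV-Cre; MMTV-PyMT by the series' design text, although the labels of its samples name only MMTV-PyMT. The S1pr1 knockout (S1pr1 KO) was MMTV-Cre;S1pr1fl/fl; MMTV-PyMT and the C3 knockout (C3 KO) was MMTV-Cre;C3Tdt:MMTV-PyMT. All groups thus carried the oncogene and, for WT by the design text alone, a Cre recombinase. The promoter of this Cre is known mainly from mammary epithelium, so a deletion need not reach every lung cell. Libraries are numbered by their place in the list of samples, and the labels do not say whether each is a separate animal; if not, the p-values reflect technical spread alone.

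The libraries held from 32274797 to 53063470 counted reads. Summed levels of 6 lung marker genes (Sftpc, Sftpb, Scgb1a1, Ager, Cldn18 and Cdh5) lay from 31450 to 48200 CPM (reads of a gene scaled to a common library size) over the 12 libraries, and each of the 6 was counted in every library. C3, which lies on the same chromosome 33.13 Mb beyond Atp6v0c, was lower in C3 KO 1 to 3 (475, 465 and 601 CPM) than in WT (787 to 1025 CPM), and the library labelled C3 KO 4 had more than any WT library (1416 CPM). S1pr1 reached 366 CPM for the library labelled S1pr1 KO 2 and 132 to 154 CPM for the rest of its group, against 295 to 491 CPM in WT. Results that rest on these libraries are given as labelled.

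Atp6v0c encodes the proteolipid subunit that forms most of the rotating membrane ring of the vacuolar ATPase, the proton pump that acidifies lysosomes, endosomes and secretory vesicles. Rnps1 encodes an RNA binding protein of the exon junction complex, which marks spliced messages and acts in splicing and in nonsense-mediated decay. Abca17, which lies between them, encodes a lipid transporter of the ABCA subfamily, and the segment also holds genes of mTOR signalling, lysosomes, cilia, mitochondria and serine proteases.

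Processed pseudogenes are copies of a spliced message that were inserted back into the genome. Of the 110 genes, 3 have rows in the table that carry their name followed by -ps, and 2 of these copies were counted: Atp6v0c-ps2 (chromosome 6, 37783021 to 37783485) and Rnps1-ps (chromosome 6, 7982541 to 7983383). Atp6v0c lies on chromosome 17 from 24382840 to 24388676 and Rnps1 from 24633539 to 24644875, in the coordinates of the deposited table (GRCm39 per the submitters' processing notes). A stretch of each gene and of its copy is shown because the reads of the gene and the copy are hard to tell apart. The sequences are coding-strand stretches of GENCODE M21 transcripts (GRCm38), matched by gene identifier, and capitals mark the bases at which the gene and its copy differ. Positions are counted from the first base of the copy, and the stretches run from base 61 to base 240 for Atp6v0c and from base 421 to base 600 for Rnps1.
Atp6v0c: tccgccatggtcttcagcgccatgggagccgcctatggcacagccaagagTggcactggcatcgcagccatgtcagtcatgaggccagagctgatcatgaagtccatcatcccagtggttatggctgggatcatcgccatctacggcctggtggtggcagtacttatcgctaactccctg
Atp6v0c-ps2: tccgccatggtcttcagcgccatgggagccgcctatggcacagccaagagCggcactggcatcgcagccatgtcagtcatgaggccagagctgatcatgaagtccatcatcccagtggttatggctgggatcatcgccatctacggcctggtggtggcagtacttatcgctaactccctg
Rnps1: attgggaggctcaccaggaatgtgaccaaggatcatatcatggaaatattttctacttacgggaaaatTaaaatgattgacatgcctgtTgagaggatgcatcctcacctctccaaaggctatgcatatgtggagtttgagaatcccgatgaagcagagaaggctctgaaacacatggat
Rnps1-ps: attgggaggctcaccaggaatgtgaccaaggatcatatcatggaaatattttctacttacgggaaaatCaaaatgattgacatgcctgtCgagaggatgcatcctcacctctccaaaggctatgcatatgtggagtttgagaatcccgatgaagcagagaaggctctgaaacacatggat

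Over its whole length Atp6v0c-ps2 was identical to the coding sequence of Atp6v0c at 464 of 465 bases. The single difference was T111C (the gene's base first), which left 354 bases in a row without a difference. Rnps1-ps matched the Rnps1 transcript at 838 of 843 bases, with the differences C171A, C260T, T489C, T510C and C684T and at most 228 identical bases in a row. The copies correspond to 39.3% of the Atp6v0c transcript and 46.4% of the Rnps1 transcript used for the alignment. A read that lies within such identical stretches fits the gene and the copy equally well. The sources used here do not say how the authors' counting assigned such reads, and the separate values of gene and copy are therefore uncertain.

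Atp6v0c, the proton pump subunit, was at 87.05, 84.32, 80.1 and 79.06 CPM in WT 1 to 4. C3 KO 1 to 3 held 107.6, 114.8 and 111.2 CPM, whereas the library labelled C3 KO 4 held 86.7 CPM. The S1pr1 KO libraries had 105.7, 111.3, 104.7 and 106.2 CPM. The library labelled C3 KO 4 thus lay within the WT range, and the other 7 knockout libraries lay above every WT library without overlap.

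Rnps1, the splicing factor, had 43.25, 47.7, 47.27 and 48.28 CPM in WT 1 to 4. C3 KO 1 to 3 had 63.62, 68.0 and 60.97 CPM, the library labelled C3 KO 4 had 43.12 CPM, and the level was 66.62, 66.25, 68.5 and 62.55 CPM in S1pr1 KO 1 to 4. The order of the libraries was that of Atp6v0c, with the library labelled C3 KO 4 beside the WT libraries and slightly below them.

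Abca17, the transporter gene between them (chromosome 17, 24483233 to 24570042), ran the other way at a low level. It was at 5.13, 5.02, 3.72 and 3.95 CPM in WT 1 to 4 and at 2.78, 2.58 and 2.69 CPM in C3 KO 1 to 3, while the library labelled C3 KO 4 had 4.53 CPM. The S1pr1 KO libraries held 1.99, 1.44, 1.83 and 1.37 CPM. Here the library labelled C3 KO 4 again lay within the WT range, the other C3 KO libraries lay below it, and the S1pr1 KO libraries were lowest.

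**Figure D1:**
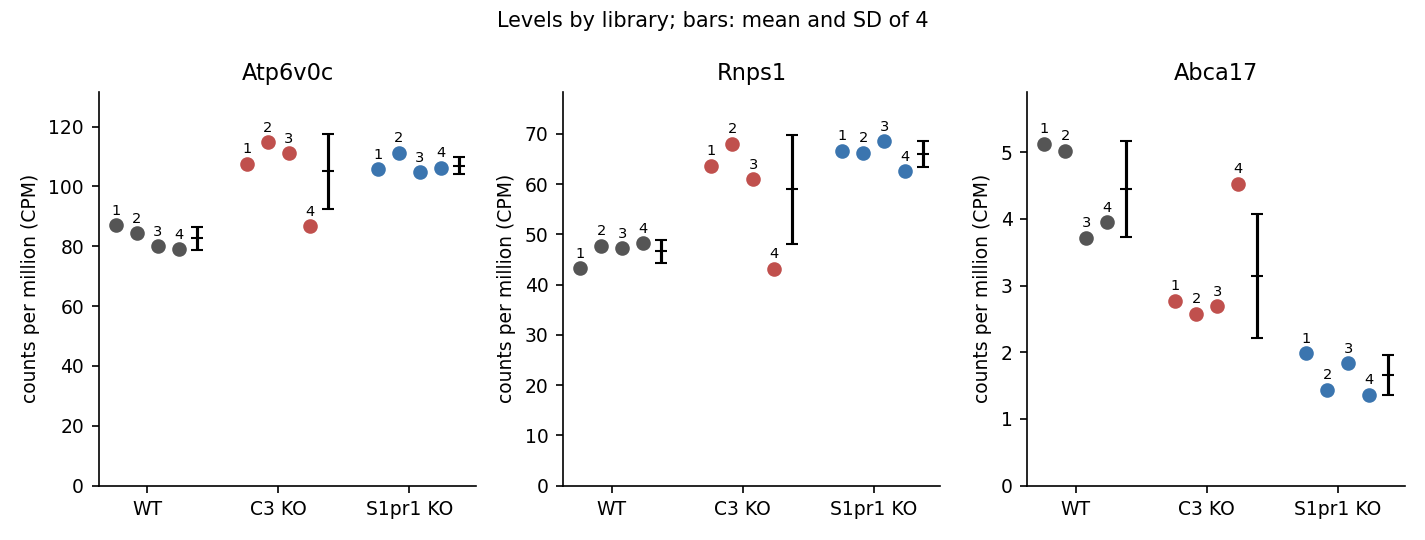
Level of Atp6v0c, Rnps1 and Abca17 in each library, in CPM on a linear axis that starts at 0, by group; the digit beside a point is the library number and the bar gives the mean and SD of the 4 libraries. In each panel point 4 of the C3 KO group lies at the level of the WT points and away from points 1 to 3 of its own group.

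The copies on chromosome 6 mirrored the genes. Atp6v0c-ps2 held 1512, 1173, 1122 and 1150 reads in WT 1 to 4 and 1279 reads in the library labelled C3 KO 4. It held 20, 11 and 20 reads in C3 KO 1 to 3 and 15, 15, 20 and 10 reads in S1pr1 KO 1 to 4. The copy was thus high in the same 5 libraries in which Atp6v0c was low, and nearly without reads in the other 7.

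Rnps1-ps held 666, 554, 533 and 550 reads in WT 1 to 4 and 466 reads in the library labelled C3 KO 4. It held 14, 5 and 10 reads in C3 KO 1 to 3 and 8, 5, 15 and 5 reads in S1pr1 KO 1 to 4. The copies of both genes therefore separated the 12 libraries into the same sets, although they lie on another chromosome than their genes. As a share of the reads of gene and copy together, Atp6v0c-ps2 took 27.4% to 29.1% in WT and in the library labelled C3 KO 4 and 0.268% to 0.535% elsewhere. Rnps1-ps took 21.7% to 26.5% in the first set and 0.187% to 0.632% in the second.

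When gene and copy were added together, the order of the libraries was lost. The sum for Atp6v0c was 122.4, 116.5, 113.0 and 110.6 CPM in WT, 108.2, 115.1, 111.8 and 119.4 CPM in C3 KO, and 106.0, 111.7, 105.2 and 106.5 CPM in S1pr1 KO. The library labelled C3 KO 4 was then the highest of its group instead of the lowest. The sum for Rnps1 was 58.8, 62.9, 62.9 and 63.4 CPM in WT, 64.0, 68.1, 61.3 and 55.0 CPM in C3 KO, and 66.8, 66.4, 68.9 and 62.7 CPM in S1pr1 KO. For Rnps1 the library labelled C3 KO 4 stayed the lowest of its group, and the WT and S1pr1 KO ranges came to overlap. Adding the copies was chosen as a check with values of these genes already known.

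**Figure D2:**
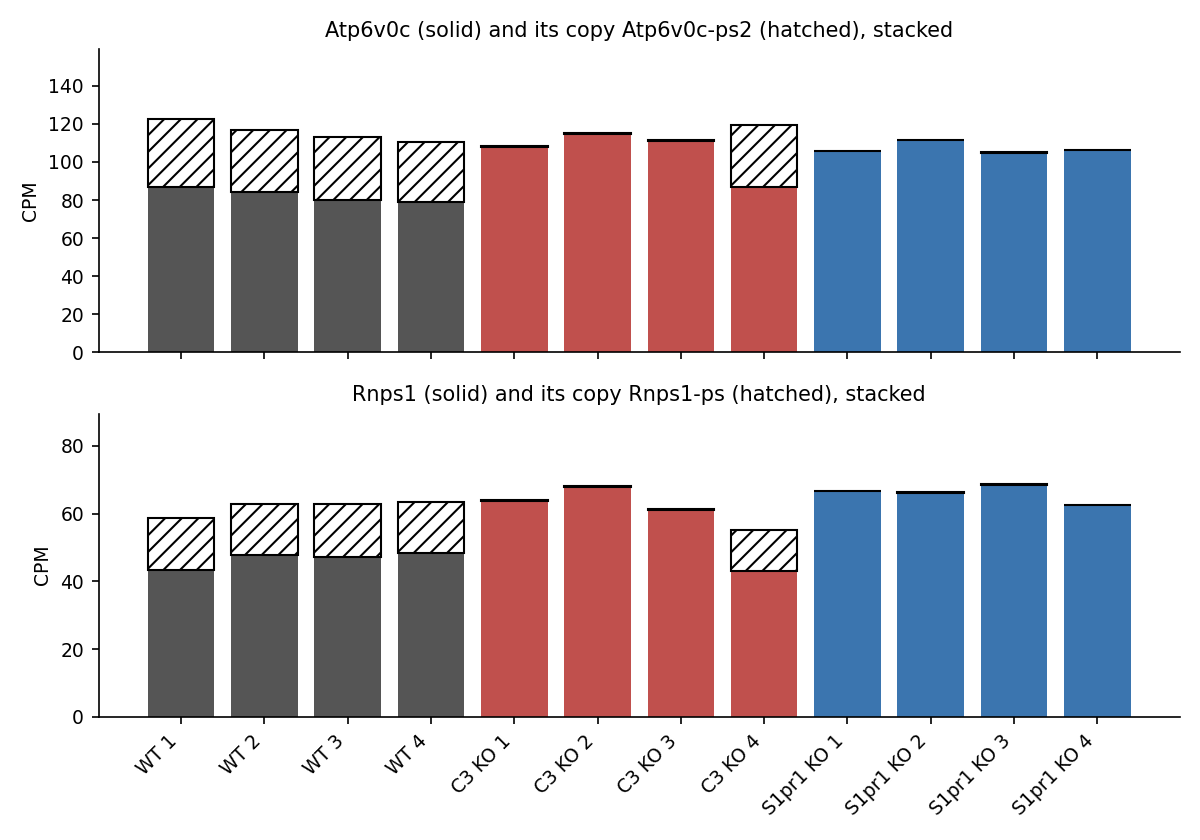
CPM of Atp6v0c (top) and Rnps1 (bottom) as solid bars, with the CPM of the chromosome 6 copy stacked on top as hatched bars, for each of the 12 libraries. Hatched parts are visible in WT 1 to 4 and in the library labelled C3 KO 4 alone, and the stacked heights differ less between libraries than the solid bars do.

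In S1pr1 KO against WT, 3 of the 81 tested genes passed edgeR's quasi-likelihood test at an adjusted p under 0.05 (3.70%), against 1.35% of all 20229 genes tested. Of the 3, 2 were higher, where 0.821% of all genes tested were called higher, and 1 was lower, where the share was 0.534%. Atp6v0c and Rnps1, whose levels chose the segment, are 2 of the 3, and without them the count was 1 of 79 (1.27%), near the share of all genes tested. Atp6v0c rose by 0.37 on the log2 scale (SE 0.078, edgeR adjusted p = 0.0429), with group means of 82.6 ± 3.73 CPM in WT and 107.0 ± 2.97 CPM in S1pr1 KO (SD, n = 4 each). Rnps1 rose by 0.50 (SE 0.11, edgeR adjusted p = 0.0493), with means of 46.6 ± 2.29 CPM in WT and 66.0 ± 2.49 CPM in S1pr1 KO. Neither call held once the copy was added, with log2 fold changes of -0.11 (SE 0.050, edgeR adjusted p = 0.286) for Atp6v0c and 0.095 (SE 0.065, edgeR adjusted p = 0.484) for Rnps1. The adjusted p over all alternatives ran from 0.00113 to 0.286 for Atp6v0c and from 0.00179 to 0.484 for Rnps1.

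Abca17 fell by 1.42 on the log2 scale (SE 0.22, edgeR adjusted p = 0.0145), and it has no row named as a copy. All 4 S1pr1 KO libraries lay below all 4 WT libraries. Leaving out a single library ended calls: Abca17 was no longer called without WT 4 or without S1pr1 KO 4, and Atp6v0c was still called when the library left out was C3 KO 4 (as labelled), C3 KO 2 or C3 KO 3, and in no other case. Rnps1 was still called after C3 KO 2, or else the library labelled C3 KO 4, was left out, and was lost without any other single library. The number of genes of the segment called therefore ran from 0 to 3, and that of all genes tested from 2 to 571.

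The copies themselves were lower in S1pr1 KO. Atp6v0c-ps2 fell by 6.48 on the log2 scale (SE 1.40, edgeR adjusted p = 0.0463) and Rnps1-ps fell by 6.22 (SE 1.27, edgeR adjusted p = 0.0405). Both calls were lost when any single WT or S1pr1 KO library was left out, with edgeR adjusted p from 0.0739 to 0.144 for Atp6v0c-ps2 and from 0.0651 to 0.126 for Rnps1-ps. Without the library labelled C3 KO 4 the SE was 0.19 and 0.31, and the edgeR adjusted p 1.3e-08 and 1.67e-06. In C3 KO against WT the values were -1.94 (SE 1.05) for Atp6v0c-ps2 and -2.25 (SE 0.97) for Rnps1-ps. These rest on the library labelled C3 KO 4, without which they were -6.07 and -5.78. The 2 contrasts share the WT libraries.

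In C3 KO against WT, 0 of the 81 genes passed the same edgeR test, where 2 of 20229 genes tested were called (0.00989%). An unadjusted p under 0.05 was reached by 14 of the 81 (17.3%) and by 11.0% of all genes tested. As a description, the log2 fold change was 0.35 for Atp6v0c, 0.34 for Rnps1 and -0.50 for Abca17. Without the library labelled C3 KO 4, edgeR called 32 of all genes tested. Of these, Atp6v0c at 0.43 and Rnps1 at 0.46 were the 2 genes of the segment. The gap between that library and C3 KO 1 to 3 in these genes chose the segment, so both calls restate it and support nothing. DESeq2 on all libraries called 3 of the segment's genes (Atp6v0c, Thoc6 and Unkl) and 172 of all genes tested. The C3 KO and WT libraries did not overlap for 5 of the 81 genes (6.17%), against 6.09% of all genes tested. These were the messenger RNA export gene Thoc6, the fatty acid oxidation gene Eci1, the ubiquitin ligase Zfp598, Unkl and the transcription factor Sox8.

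To ask whether neighbours divide the C3 KO libraries alike, the 4 library levels of each gene were put in order on the log2 CPM scale. A gene was said to divide the libraries when the largest gap was at least 0.3 and made up at least 0.6 of the range. The library labelled C3 KO 4 stood apart from C3 KO 1 to 3 for 7 of the 81 genes (8.64%), against 8.54% of all genes tested. The share in the segment was thus close to that of all genes tested. Of those 20229, 15584 are protein coding, as all genes of the segment are, and the share over protein coding genes alone is not given here. Among genes with at least 1 CPM in 4 libraries the shares were 9.46% in the segment and 8.13% overall. Without Atp6v0c and Rnps1 the count in the segment was 5 of 79 (6.33%), and adding their copies also left 5.

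The 7 did not go the same way. Atp6v0c, Rnps1, Spsb3 and Baiap3 were lowest in the library labelled C3 KO 4, and Abca17, Npw and Ift140 were highest there. Spsb3, which encodes a substrate receptor of ubiquitin ligases (chromosome 17, 25105617 to 25111126), had 8.13, 8.40 and 8.08 CPM in C3 KO 1 to 3, where the library labelled C3 KO 4 had 6.14 CPM, with WT at 6.62, 6.06, 7.12 and 6.80 CPM. S1pr1 KO 1 to 4 held 7.76, 8.32, 6.72 and 7.72 CPM of Spsb3, so that S1pr1 KO 3 lay among the WT libraries. Spsb3 also overlaps Eme2 on the opposite strand, and without a known strand setting their reads cannot be told apart.

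Npw, the gene of the peptide hormone neuropeptide W (chromosome 17, 24876304 to 24877431), had 15.65, 13.41, 13.16 and 20.29 CPM in C3 KO 1 to 4. Its WT libraries ran from 15.14 to 21.09 CPM and its S1pr1 KO libraries from 11.31 to 18.38 CPM, and all groups overlapped. Ift140, a subunit of the intraflagellar transport complex that returns cargo from the tip of cilia (chromosome 17, 25235059 to 25318469), had 31.96, 32.02, 34.37 and 42.66 CPM in C3 KO 1 to 4. Here the library labelled C3 KO 4 lay above every WT library (28.64, 29.43, 32.95 and 31.05 CPM), not among them. Summed levels of 6 ciliated cell markers (Foxj1, Ccdc153, Tppp3, Dynlrb2, Rsph1 and Cfap126) were also highest of the C3 KO group in that library, at 727.8 CPM against 543.7 to 655.7 CPM, and their part in the Ift140 value was not tested. Ift140 overlaps Tmem204 on the opposite strand by 25890 bases, where reads cannot be told apart without a known strand setting. Tmem204 was at 278.8, 248.1, 233.1 and 217.5 CPM in C3 KO 1 to 4.

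Baiap3, a gene of vesicle trafficking (chromosome 17, 25461633 to 25475338), had 27.73, 28.25, 24.41 and 19.4 CPM in C3 KO 1 to 4. Its WT libraries lay from 24.6 to 27.91 CPM and its S1pr1 KO libraries from 24.25 to 26.98 CPM, so the library labelled C3 KO 4 lay below all other libraries of the series. Of the 7 genes, Atp6v0c, Rnps1 and Abca17 are the ones in which WT and the library labelled C3 KO 4 lay on one side of all other libraries. Spsb3 missed that order by S1pr1 KO 3 alone. These readings use the levels that chose the segment and carry no test.

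Of the 5 genes that start between Atp6v0c and Rnps1, 1 met the rule for this division, and that was Abca17. Ntn3, the gene of a netrin, was at 6.48, 7.38, 5.80 and 4.58 CPM in C3 KO 1 to 4 and from 4.61 to 6.69 CPM in WT. Its largest gap, 0.338 on the log2 scale, also set the library labelled C3 KO 4 lowest, but made up 49.6% of the range. Tedc2 was at 9.08, 10.19, 9.27 and 8.11 CPM in C3 KO 1 to 4, again lowest in that library, with a gap of 0.162. Amdhd2, an enzyme of amino sugar breakdown that starts 8 kb before Atp6v0c, was at 25.77, 26.52, 25.21 and 20.65 CPM in C3 KO 1 to 4 and from 20.16 to 26.91 CPM in WT. Its gap of 0.287 made up 79.75% of the range and fell just short of the rule. Tbc1d24, a regulator of vesicle traffic that lies next to Atp6v0c, was at 22.04, 21.63, 24.54 and 21.06 CPM in C3 KO 1 to 4 and from 15.26 to 22.63 CPM in WT. Tbc1d24 and Ntn3 overlap on the same strand by 1715 bases, where their reads cannot be told apart with certainty. Ccnf, the cyclin F gene beside Abca17, was at 2.60, 3.48, 2.44 and 3.07 CPM in C3 KO 1 to 4 and from 2.34 to 3.21 CPM in WT. Eci1, which starts just beyond the end of Rnps1, was at 34.56, 31.91, 33.18 and 33.32 CPM in C3 KO 1 to 4, with no library apart. Genes nearest to Atp6v0c and Rnps1 thus included some in which the library labelled C3 KO 4 was lowest by a smaller margin and some in which it was not. These neighbours were picked for their place, after their values had been seen.

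At the edges of the segment, the first gene inside was Vmn2r114, with no reads, and the last was Haghl, at 20.2, 15.33, 24.31 and 17.47 CPM in WT, 19.55, 21.4, 19.6 and 16.3 CPM in C3 KO and 22.59, 15.77, 20.08 and 17.45 CPM in S1pr1 KO. Just outside, the zinc finger gene Zfp40 (start 23392843) was at 8.003, 7.79, 8.38 and 9.27 CPM in WT, 11.02, 11.88, 10.22 and 7.19 CPM in C3 KO and 12.19, 9.47, 12.48 and 11.1 CPM in S1pr1 KO. In Zfp40 the WT libraries and the library labelled C3 KO 4 were thus the 5 lowest, as in Atp6v0c. Ccdc78 (start 26005554), at the other edge, ran from 14.98 to 24.19 CPM in WT, 19.27 to 25.69 CPM in C3 KO and 21.51 to 34.12 CPM in S1pr1 KO, and its groups overlapped.

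**Figure D3:**
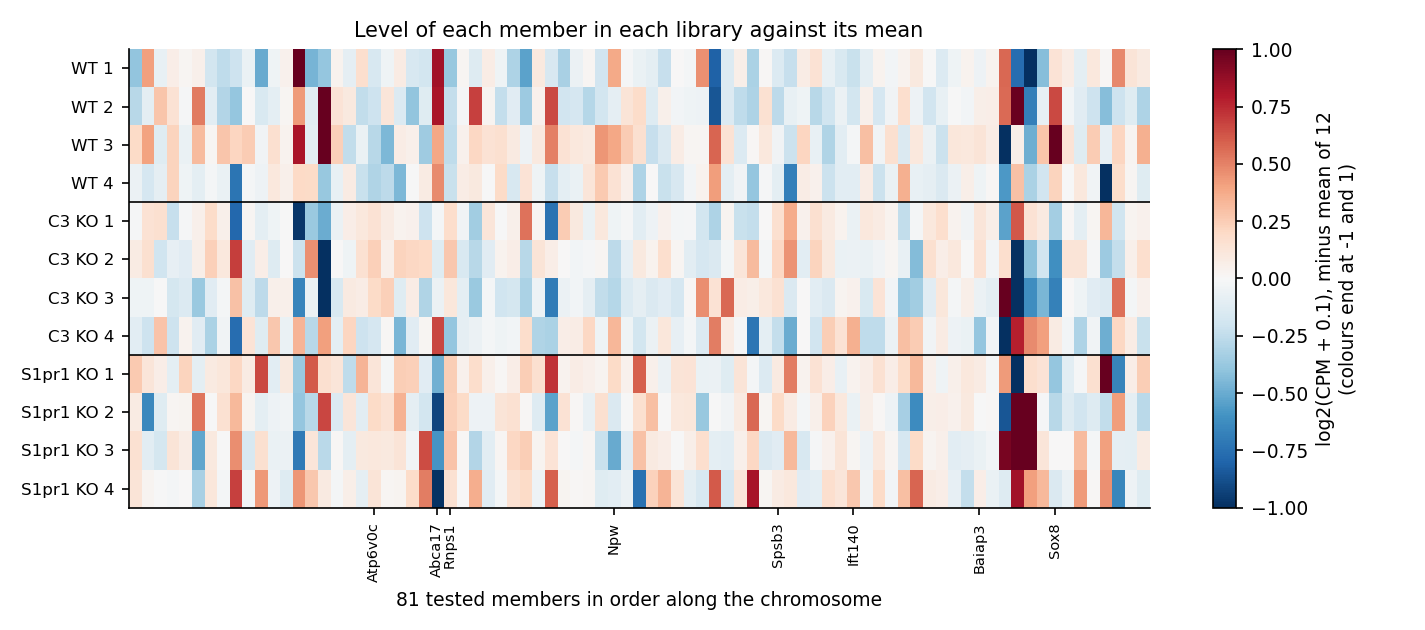
Level of the 81 tested genes (columns, in order along the chromosome) in each of the 12 libraries (rows, in 3 groups), as the log2 level minus the mean of the gene over the 12 libraries, with red for higher and blue for lower. Named columns are the 7 genes that set the library labelled C3 KO 4 apart, and Sox8. Among the named columns Abca17 and Rnps1 adjoin, and they run in opposite directions.

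The library labelled C3 KO 4 was also the one that stood apart most often over the whole table: C3 KO 1 did so in 2.39% of all genes tested, C3 KO 2 in 3.04% and C3 KO 3 in 4.13%. In the segment 0, 1 and 2 genes set these libraries apart. Of the 81 genes, 12 divided the C3 KO libraries in some way (14.8%), against 23.2% of all genes tested. The other 5 were Kremen2, Prss30, Msrb1, Hagh and Tpsb2. Msrb1, a methionine sulfoxide reductase, was at 52.75, 53.39, 83.04 and 54.46 CPM in C3 KO 1 to 4, and Hagh, an enzyme that clears products of methylglyoxal, at 30.63, 29.68, 44.95 and 31.83 CPM. In these 2 genes C3 KO 3 was the library apart. Divisions into pairs of libraries were found less often than the one with C3 KO 4 apart: over all genes tested, 1.61% set C3 KO 1 and 2 against 3 and 4, 0.969% set 1 and 3 against 2 and 4, and 2.57% set 1 and 4 against 2 and 3. Of the segment's genes 0, 0 and 2 did so.

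A stricter description uses all 12 libraries, and was added after the values had been seen. It asks that WT 1 to 4 and the library labelled C3 KO 4 all lie on the same side of the other 7 libraries. Of the 81 genes 4 did so (4.94%), against 0.919% of all genes tested: Atp6v0c and Rnps1 were low in the 5 libraries, and Abca17 and Sox8 were high. Without Atp6v0c and Rnps1 it was 2 of 79 (2.53%), and with the copies added it was 2 of 81, Abca17 and Sox8. Sox8 (chromosome 17, 25784866 to 25789660) was at 0.562, 0.850, 1.41 and 0.604 CPM in WT, 0.376, 0.293, 0.278 and 0.537 CPM in C3 KO, and 0.360, 0.398, 0.505 and 0.445 CPM in S1pr1 KO. The library labelled C3 KO 4 and S1pr1 KO 3 lay close together in Sox8, at a level where a library holds few reads.

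The order was more frequent over chromosome 17 as a whole than over the other chromosomes. It was found in 36 of 1009 tested genes there (3.57%), and the next highest share was 1.89% on chromosome 10. Off chromosome 17 the share was 0.780%. The 36 genes were spread from 17.7 Mb before Atp6v0c to 54.4 Mb beyond it. In windows of 2.5 Mb, the window that holds Atp6v0c had 6 of 69 tested genes in this order (8.70%), a window centred 46.9 Mb beyond it had 3 of 21 (14.3%), and a window centred 18.1 Mb before it had 3 of 28 (10.7%). Of 373 windows with at least 20 tested genes on all chromosomes, 16 had a share above the 4.94% of the segment, and the median window had 0. That 4.94% counts Atp6v0c and Rnps1, whose levels chose the segment, and without them the share was 2.53%. The 6 genes of the window that holds Atp6v0c include them too, so this comparison of windows is a description.

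**Figure D4:**
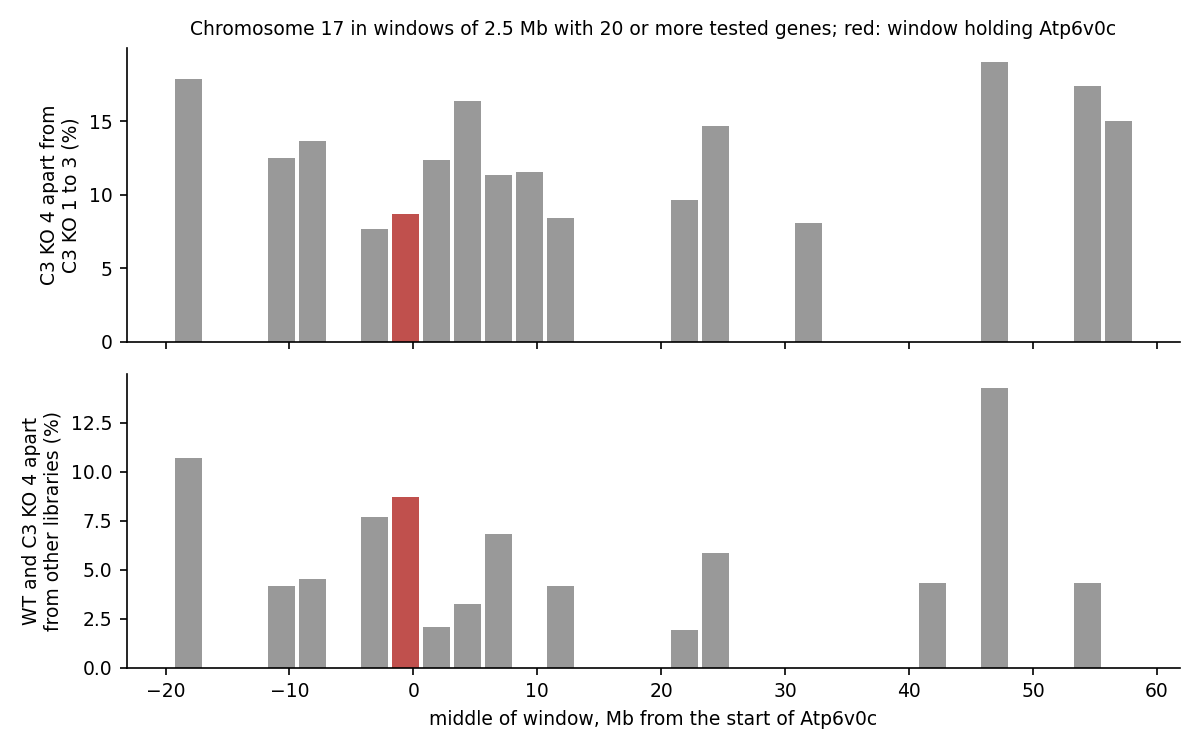
Share of tested genes in windows of 2.5 Mb along chromosome 17, by distance of the middle of the window from the start of Atp6v0c, for windows with at least 20 tested genes. Top, genes in which the library labelled C3 KO 4 stands apart from C3 KO 1 to 3; bottom, genes in which WT and the library labelled C3 KO 4 stand apart from the other 7 libraries. The red window, which holds Atp6v0c, reaches 8.70% in both panels and is not the highest in either.

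Within the segment, 2 further rows outside the gene rule had the same order of libraries. The long noncoding RNA Gm50022 (chromosome 17, 24998677 to 25000958) was at 1.19, 0.521, 0.410 and 0.576 CPM in WT, at 0 in C3 KO 1 to 3, at 0.179 CPM in C3 KO 4 as labelled, and from 0 to 0.0497 CPM in S1pr1 KO. It fell by 4.36 on the log2 scale in S1pr1 KO (SE 0.86, edgeR adjusted p = 0.0378). The row of the microRNA gene Mir5125, which lies inside Srrm2, was at 22.0, 22.22, 29.75 and 26.91 CPM in WT, 19.09, 20.64, 21.24 and 22.44 CPM in C3 KO, and 20.39, 21.26, 17.53 and 18.76 CPM in S1pr1 KO. It lies on the same strand as Srrm2, and their reads cannot be told apart. Abca3, left out by the rule and lying between Abca17 and Rnps1, was at 585.0, 485.3, 509.0 and 439.6 CPM in WT, 400.4, 429.5, 485.2 and 540.2 CPM in C3 KO, and 376.9, 381.3, 371.7 and 413.3 CPM in S1pr1 KO, so C3 KO 3 overlapped WT.

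No other subunit of the proton pump was called. Of 22 tested genes of the vacuolar ATPase and its accessory proteins, 0 rose and 0 fell in either contrast by edgeR's adjusted p. At the shares called over all genes tested (1.35% in S1pr1 KO and 0.00989% in C3 KO), a list of this size would hold few or no calls, so the count says little about the pump. In S1pr1 KO 17 of the 22 had values below 0, and in C3 KO 1 divided the libraries as Atp6v0c did. Their median log2 fold change was -0.023 in C3 KO and -0.11 in S1pr1 KO, where the medians of all genes tested were -0.0010 and -0.0011. In FPKM, read counts scaled by gene length and library size, the ring subunit Atp6v0b had medians of 56.39, 52.13 and 51.3 in WT, C3 KO and S1pr1 KO, and the stalk subunit Atp6v1g1 118.7, 115.5 and 101.4. Atp6v0c itself had medians of 24.24, 32.28 and 31.05 FPKM. The log2 fold changes in S1pr1 KO of the 22 ranged from -0.80 (the kidney-type subunit Atp6v0a4, edgeR adjusted p = 0.0608) to 0.68 (Atp6v1b1, edgeR adjusted p = 0.204).

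The exon junction complex and its partners gave the same counts. At the shares called over all genes tested (1.35% in S1pr1 KO and 0.00989% in C3 KO), this list too would hold few or no calls. Of 20 tested genes other than Rnps1 and Srrm2, 0 rose and 0 fell in either contrast by edgeR's adjusted p, with median log2 fold changes of -0.060 in C3 KO and -0.030 in S1pr1 KO. The core helicase Eif4a3 had FPKM medians of 34.99, 31.76 and 31.76 in WT, C3 KO and S1pr1 KO. Magoh, its partner, had 28.72, 25.88 and 28.84 FPKM, and Pnn, with which Rnps1 forms a splicing complex, had 23.89, 22.45 and 23.1 FPKM. Rnps1 had 9.23, 12.12 and 12.89 FPKM.

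The rest of the segment is described by role. At the shares called over all genes tested (1.35% in S1pr1 KO and 0.00989% in C3 KO), each of these lists would hold few or no calls. Their counts thus say little about a role, and Rnps1 and Atp6v0c are the genes whose levels chose the segment. Of 7 tested genes of RNA processing, 1 was called in S1pr1 KO (Rnps1). The speckle scaffold Srrm2, the most abundant gene of the list by level per length, had FPKM medians of 78.23, 76.98 and 73.28 in WT, C3 KO and S1pr1 KO. The ligase Zfp598, which acts on stalled ribosomes, had 29.18, 26.25 and 26.84 FPKM, and Tsr3, which modifies ribosomal RNA, had 14.87, 14.21 and 14.44 FPKM. The list's median log2 fold change was -0.056 in C3 KO and -0.068 in S1pr1 KO.

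Of 6 tested genes of lysosomes and endosomes, Atp6v0c was the 1 called, in S1pr1 KO. Gnptg, a subunit of the enzyme that tags lysosomal proteins with mannose 6-phosphate, had FPKM medians of 20.48, 20.9 and 20.5 in WT, C3 KO and S1pr1 KO. The lysosomal chloride exchanger Clcn7 had 13.57, 13.86 and 13.8 FPKM. Tbc1d24 had 2.19, 2.54 and 2.52 FPKM and Amdhd2 5.88, 6.95 and 6.52 FPKM. Gnptg and Clcn7 were thus nearly level over the 3 groups, while Tbc1d24 and Amdhd2 had higher medians in both knockouts without being called. The list's median log2 fold change was 0.066 in C3 KO and 0.12 in S1pr1 KO.

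Of 6 tested genes in the list of the mTOR and PI3 kinase pathway, 0 were called in either contrast. The tumour suppressor Tsc2, which restrains mTOR, had FPKM medians of 17.14, 18.3 and 18.12 in WT, C3 KO and S1pr1 KO, and the kinase Pdpk1 had 6.80, 7.21 and 6.72. The list's median log2 fold change was 0.091 in C3 KO and 0.14 in S1pr1 KO. The list and its medians also hold Npw and Caskin1, which are not established members of the pathway. Npw had 30.21, 22.68 and 23.03 FPKM and Caskin1 0.491, 0.553 and 0.655 FPKM.

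Of 8 tested genes of the ubiquitin system and its relatives, 0 were called. The adaptor Elob had FPKM medians of 60.18, 58.67 and 56.82 in WT, C3 KO and S1pr1 KO and the ligase Traf7 25, 23.57 and 23.52. Of 8 tested genes in the mitochondrial list 0 were called. The complex I subunit Ndufb10 was at 50.91, 51.27 and 54.89 FPKM and Eci1 at 16.99, 15.65 and 16.84 FPKM. The list also holds genes of cytosolic proteins, such as the phosphatase Pgp at 16.64, 15.74 and 16.07 FPKM. The median log2 fold changes in S1pr1 KO were -0.054 for the ubiquitin list and 0.021 for the mitochondrial list.

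Of 7 tested genes in the list of DNA repair, replication and cell cycle and 6 in the cilia list, 0 were called. In the first list the transcription factor E4f1 had FPKM medians of 10.74, 10.28 and 9.82 in WT, C3 KO and S1pr1 KO, the base excision enzyme Nthl1 4.13, 3.88 and 4.02, and the centriole gene Tedc2 3.24, 3.59 and 3.63. In the second, polycystin 1 (Pkd1) had 18.29, 20.81 and 20.54 and the axoneme gene Tekt4 5.06, 5.39 and 6.05. The list also holds Cramp1, which is not an established cilia gene, at 7.71, 8.49 and 8.97. Of the 6 genes of the cilia list 5, Cramp1 included, had values above 0 in each contrast. The medians of the list were 0.16 in C3 KO and 0.19 in S1pr1 KO. Beside these, the summed ciliated cell markers lay from 543.0 to 646.4 CPM in WT, 543.7 to 727.8 CPM in C3 KO and 684.1 to 864.5 CPM in S1pr1 KO, and their part in the result was not tested. In whole tissue, fewer cells of a type and less RNA per cell cannot be told apart.

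Of 11 tested genes of membranes, junctions and signalling, Abca17 was the 1 called, in S1pr1 KO. The scaffold Slc9a3r2 had the highest level per length of this list, with FPKM medians of 233.3, 223.0 and 216.5 in WT, C3 KO and S1pr1 KO. The endothelial gene Tmem204 had 113.7, 101.0 and 109.5 FPKM, and the mesothelial surface gene Msln 26.62, 23.62 and 18.25 FPKM. Msln varied widely within groups, from 61.91 to 99.69 CPM in WT, 60.77 to 104.7 CPM in C3 KO and 45.27 to 95.64 CPM in S1pr1 KO. The summed markers of mesothelium (Upk3b, Wt1, Lrrn4, Krt19, Upk1b and Bnc1) lay from 255.1 to 374.5, 277.7 to 335.0 and 270.7 to 361.4 CPM in those groups, and their part in the Msln spread was not tested.

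The largest rise among the 81 genes in value was that of Cacna1h, a T-type calcium channel, at 2.09 on the log2 scale in S1pr1 KO (SE 0.52), which did not pass in edgeR (adjusted p = 0.0670) and passed in DESeq2 (adjusted p = 0.00108). It was named after its values were seen. It was at 0.819, 2.33, 2.69 and 3.05 CPM in WT, 4.22, 2.84, 2.44 and 5.35 CPM in C3 KO and 4.30, 20.35, 7.94 and 5.11 CPM in S1pr1 KO. The library labelled S1pr1 KO 2 was far above the rest, and without it the log2 fold change was 1.38.

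Tryptases and related serine proteases, which are products of mast cells and epithelia, were near the floor of detection. Of 13 such genes in the segment 5 were tested and 0 were called. The mast cell tryptase Tpsb2 ran from 0.304 to 1.26 CPM in WT, from 0.0585 to 1.075 CPM in C3 KO and from 0.0568 to 2.11 CPM in S1pr1 KO. Prss30 and Prss22 had FPKM medians of at most 0.495 and 0.326 in any group. Summed levels of 8 mast cell markers (Cpa3, Mcpt4, Cma1, Kit, Fcer1a, Ms4a2, Gata2 and Hdc) lay from 508.5 to 607.7 CPM in WT, 408.3 to 632.9 CPM in C3 KO and 429.2 to 517.4 CPM in S1pr1 KO. All 8 were counted in every library, but Kit and Gata2 are also made by other lung cells.

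The 29 genes that were not tested had at most 96 reads over all libraries. Of these 10 had no read at all, among them the pheromone receptor genes Vmn2r114 to Vmn2r117 and the submandibular gland gene Sbpl, and 16 had under 10 reads. Over the 81 tested genes the median log2 fold change was 0.013 in C3 KO and 0.070 in S1pr1 KO. In S1pr1 KO against WT an unadjusted p under 0.05 was reached by 19 of the 81 (23.5%), against 18.0% of all genes tested, and the libraries of these groups did not overlap for 11 (13.6%), against 11.3%. Besides Atp6v0c, Rnps1, Abca17, Sox8 and Cacna1h the 11 included Gfer, Eme2, Jpt2, BC003965 and Unkl. Jpt2 had a log2 fold change of 0.33 and Eme2 of 0.56 in S1pr1 KO, and neither passed (edgeR adjusted p = 0.0767 and 0.180). Jpt2 passed in DESeq2 (adjusted p = 0.0169) and in limma voom (adjusted p = 0.0485). Within groups, the median SD of log2 CPM was 0.17 in WT, 0.16 in C3 KO and 0.11 in S1pr1 KO for the segment, and 0.15, 0.15 and 0.14 for all protein coding genes tested.

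Likeness to Atp6v0c was measured as Pearson's r of log2 CPM over the 12 libraries, a description with no test since the libraries share their groups. Rnps1 was the closest of the segment, at r = 0.906 and rank 5 of 20228 genes, followed by Spsb3 at 0.799 and Unkl at 0.787. The levels of Atp6v0c and Rnps1 in the C3 KO libraries chose the segment, so the value for Rnps1 in part restates that choice. The lowest of the segment were Sox8 at -0.841 and Abca17 at -0.777. The median r was 0.094 in the segment and 0.016 over all genes tested, with an upper quartile of 0.446 in the segment and 0.278 over all genes tested. Of the 80 other genes of the segment, 30 (37.5%) lay above that upper quartile of all genes. The lower quartile was -0.265 in the segment and -0.260 over all genes tested. Neighbours thus ran both with and against Atp6v0c, and the segment differed from all genes tested at the upper quartile more than at the lower.

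The genes most like Atp6v0c outside the segment lay on several chromosomes, chromosome 17 among them. The highest were the small nucleolar RNA host gene Gas5 on chromosome 1 at 0.954, Cpeb3 on chromosome 19 at 0.937, the DNA glycosylase Tdg on chromosome 10 at 0.930, Gm26510 at 0.909 and Pggt1b at 0.905. The next were Gm7818, Lyrm7, Dlx1as, Gm16046 and Rnft2, from 0.903 down to 0.886. Of the 10 highest, Gm26510, Gm7818 and Gm16046 lie on chromosome 17, which holds 1009 of the 20229 genes tested, the segment included. The lowest were Gm8810 on chromosome 17 at -0.968, Rnps1-ps at -0.968, Hmga1b on chromosome 11 at -0.964, Atp6v0c-ps2 at -0.961 and Gm49909 on chromosome 17 at -0.960. These were followed by Tnn, Gm15918, Hal, Gm13092 and Rps2-ps13, from -0.957 to -0.948. Of the 10 lowest, 4 are processed pseudogenes, and the copies of Rnps1 and Atp6v0c are among them.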

How the data were processed

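Whole lung RNA was sequenced in 12 libraries, 4 a group. The authors deposited raw read counts per gene and FPKM values (counts divided by gene length and library size, as checked against the count table). CASAVA, STAR, GRCm39 and mm39 are named per the submitters' processing notes; the counting tool, the strand setting and the treatment of reads that fit several places have no entry in the sources used here.

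Counts were fitted in edgeR 4.0.16 (R 4.3.3; TMM, filterByExpr, quasi-likelihood test, 1 mean per group, 9 residual degrees of freedom), with Benjamini-Hochberg adjustment over all 20229 genes tested and a threshold of 0.05. The fit was tested on simulated data. CPM used TMM library sizes, and log2 CPM a prior count of 2. Alternatives were DESeq2 1.42.0, RLE size factors, no filter, fits of the 2 groups compared, limma 3.58.1 (voom with quality weights; log2(FPKM + 1), genes with at least 0.5 FPKM in 4 libraries), counts summed with -ps copies, and each library left out. Transcripts of GENCODE M21 were aligned by local pairwise alignment.

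The genes and lists were chosen with earlier results of these data known. Named were Atp6v0c, Rnps1, genes called or dividing the C3 KO libraries alike, the 3 most abundant genes of each role list, counted copies, and the 10 genes most and least like Atp6v0c; others are named by place or value, and 1 item under this rule is not reported here. Of the genes of the segment, 53 overlap another row.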

Additional observations from a re-analysis of the deposited data

Results flagged for a closer look

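Levels in which 1 library of a group lay far from the other 3 were looked for with Dixon's gap ratio in 30 groups, the 3 groups of 10 named genes and copies. Chance alone exceeds the critical value in about 1 in 20 groups, or 1.5 of 30, but that rate does not apply here, since several of these genes were named because the library labelled C3 KO 4 stood apart. The ratios are a description. Atp6v0c-ps2 in the library labelled C3 KO 4 was at 32.73 CPM, against 0.578 CPM or less in the other C3 KO libraries. The ratio was 0.883 for the log2 levels. Spsb3 in the library labelled C3 KO 4 was at 6.14 CPM, the lowest of its group, with a ratio of 0.875. Abca17 was at 4.53 CPM there, the highest of its group, with a ratio of 0.868. Rnps1-ps was at 0.398 CPM (15 reads) in S1pr1 KO 3 and from 0.124 to 0.151 CPM in the other S1pr1 KO libraries, with a ratio of 0.847, a gap that rests on 7 to 10 reads.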

How the results depend on the processing

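In C3 KO against WT no gene of the segment was called under RLE size factors, without a filter or with the copies summed. The same held with 2 groups only, with voom and on log2(FPKM + 1). DESeq2 called 3, where it called 172 over all genes tested. Leaving out 1 library gave 0 to 2. The 2 came without the library labelled C3 KO 4, with 32 called over all genes tested. In S1pr1 KO against WT, DESeq2 called 6 in place of 3 (adding Cacna1h, Gfer and Jpt2). Over all genes tested it called 1279 in place of 274. Voom called 4 (adding Jpt2) and 928 over all genes tested. The fit on log2(FPKM + 1) called 1, with 171 over all genes tested, and the sum with copies called 1, with 269. Leaving out 1 library gave 0 to 3, with 2 to 571 over all genes tested. With the copies summed, the log2 fold change of Atp6v0c turned to -0.025 in C3 KO and to -0.11 in S1pr1 KO, by construction from the reads of the copies. With a gap of 0.2, the 7 genes that set the library labelled C3 KO 4 apart became 11. That was 13.6%, against 11% of all genes tested. With a gap of 0.5 they became 1 (1.23% against 5.39%), and on log2(FPKM + 1) they became 2 (2.82% against 6.02%). They became 6 to 20 with 1 library left out, the higher numbers with 3 C3 KO libraries. There the share of all genes tested rose too. Without C3 KO 1, 2 or 3 the segment's share was 20.7%, 15.9% and 24.4%, against 20.8%, 15.3% and 18.4% of all genes tested. Without the library labelled C3 KO 4 the division could not be defined. DESeq2 gave no adjusted p for the copies. Genes under about 1 CPM (Sox8, Tpsb2) rest on few reads. No paired analysis was possible because the labels number the libraries through the series and share no replicate number between groups.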
